A study of Bos taurus with 6 samples.

Results

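The genes described here encode the proteins of the cytosolic ribosome, the particle that translates mRNA outside the mitochondria. They were chosen by symbol alone, as every gene named RPL or RPS with a digit, RPLP with a digit, or RPSA, leaving out the ribosomal S6 kinases. This gave 80 of the 17663 genes in the table, with 79 different symbols because RPS29 occurs at 2 places, and they lie on 27 chromosomes. The symbols of 46 belong to the large subunit (RPL and RPLP) and those of 34 to the small subunit (RPS and RPSA). RPS19BP1 is taken in by its name, although it encodes a binding protein of RPS19 and not a part of the ribosome.

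RNA was sequenced from bovine fetal fibroblasts (bEFs) of 3 cattle fetuses carrying fat-1 (FT) and 3 wild-type fetuses (WT), aged 50 to 60 days in both groups, with 1 library per fetus. The transgene encodes a desaturase of Caenorhabditis elegans that turns n-6 into n-3 polyunsaturated fatty acids, and the comparison of FT with WT cells asks which transcripts differ where it is present. Both groups were primary cultures of what was left of a fetus once its head, limbs, organs and bones were taken away. WT fetuses were Luxi cattle, whereas the breed of the FT fetuses, the promoter of the transgene and the number of founder lines are not given in the sources used here, so that genotype, fetus and origin cannot be told apart.

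A ribosome carries one copy of nearly every ribosomal protein, and surplus free proteins are degraded, so their mRNAs are usually abundant and kept in proportion to one another. These mRNAs begin with a stretch of pyrimidines through which mTOR and LARP1 control how much of them is translated, and for this reason an mRNA level is not a measure of the protein made. Many of the genes have close paralogues or processed copies elsewhere in mammalian genomes, and how reads shared by such copies were counted is not given in the sources used here, which leaves an uncertainty on each value below.

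Counts added up to 63366834 (FT_1), 48167642 (FT_2), 54204446 (FT_3), 69777641 (WT_1), 51310741 (WT_2) and 54271927 (WT_3). The median count of a ribosomal protein gene was between 20104.5 and 49683 in every library, so counting noise was small for all but the rarest of them. FT_1 stood apart from the other FT libraries, and values without it are therefore given beside the fitted fold changes. Across 11230 genes the SD of the log2 difference from FT_1 was 1.08 for both FT_2 and FT_3, against 0.20 between FT_2 and FT_3.

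Markers of fibroblasts and of other cells were read in the same libraries. All 9 fibroblast markers had a value in every library, with VIM the most abundant by mean over the libraries, and their summed FPKM (fragments scaled by gene length and library total) was 6776 in FT_1 and 16990.0 and 16720.0 in FT_2 and FT_3, against 17740.0, 17210.0 and 17290.0 in WT_1, WT_2 and WT_3. The sum covered members that went different ways. VIM was at 1244, 3850.2 and 4171 in FT_1, FT_2 and FT_3 against 7891, 8178 and 7312 in the WT libraries, LUM at 551, 2759 and 2559 against 1224, 1117 and 1137, and PDGFRA, highest in FT_1, at 218, 166 and 141 against 93.5, 87.0 and 99.7. The 5 epithelial markers summed to 138.5 in FT_1, to 8.47 and 9.2 in the other FT libraries and to 10.1, 7.83 and 13.9 in the WT libraries. KRT8, the most abundant of them in FT_1, was at 84.1, 0.950 and 0.610 in FT_1, FT_2 and FT_3, while KRT8, KRT18 and EPCAM were at 0 in all WT libraries. The 3 mesothelial markers, led by MSLN, summed to 199.7, 45.0 and 46.3 in the FT libraries and 2.32, 3.48 and 3.34 in the WT libraries, with WT1 at 0 in the FT libraries. Sums over the endothelial, blood, nerve and skeletal muscle markers that had a gene in the table were at most 5.77. Among these markers DES was at an FPKM of 5.74, 4.01 and 3.17 in the FT and 0.07, 0 and 0 in the WT libraries. By edgeR DES was called higher, and CD68 and TUBB3 lower (Benjamini-Hochberg adjusted p = 0.00488, 0.0185 and 0.0384). The part of these cells in the results on ribosomal protein genes was not tested, and in bulk RNA fewer cells of a type and less RNA per cell cannot be told apart.

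Ribosomal protein genes were among the most abundant transcripts of these cells. Ranked by mean FPKM over the 6 libraries, they held 47 of the 100 highest places in the table. By that mean, 51 of the 80 genes were above an FPKM of 500 and 24 lay between 60 and 500. The other 5 were under 60. The 3 highest were the stalk proteins RPLP1 and RPLP0 and the large-subunit protein RPL17, at a mean FPKM of 2408, 2217 and 1584. The 3 lowest were RPL7L1 at 39.6, the second RPS29 at 1.33 and RPL3L, a paralogue of RPL3 used in striated muscle, at 0.0617.

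Together the 80 genes took a smaller share of the RNA in 2 of the 3 FT libraries than in any WT library. Their share of all counts was 6.58%, 4.49% and 4.28% in FT_1, FT_2 and FT_3, and the WT libraries held 6.53%, 7.03% and 6.46%. FT_2 and FT_3 lay below all WT libraries and FT_1 lay among them. FN1, the gene of fibronectin, alone took 7.01% of the counts in FT_1, 1.66% in FT_2, 1.71% in FT_3 and 0.264%, 0.222% and 0.282% in the WT libraries. With FN1 left out of the totals, a step added after its share was seen, the ribosomal protein genes held 7.07%, 4.56% and 4.36% in the FT and 6.54%, 7.04% and 6.48% in the WT libraries. Where FT_1 stood depended on the measure, as its share of all FPKM was 17.1%, above the 15.8%, 16.5% and 15.6% of the WT libraries, with FT_2 at 12.1% and FT_3 at 11.7% below them. The mean share was 5.11 ± 1.27% in FT cells and 6.67 ± 0.309% in WT cells (SD, n = 3), a ratio of 0.767, and 0.657 without FT_1. Their summed FPKM was 69839.7, 47850.3 and 45589 in FT_1, FT_2 and FT_3 and 72146, 77371 and 70954 in WT_1, WT_2 and WT_3, which put FT_1 below every WT library. The sum over large-subunit genes was 1.40, 1.34 and 1.34 times that over small-subunit genes in the FT libraries and 1.36, 1.38 and 1.39 times in the WT libraries, which is a ratio within each library that overlapped between groups.

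**Figure D1:**
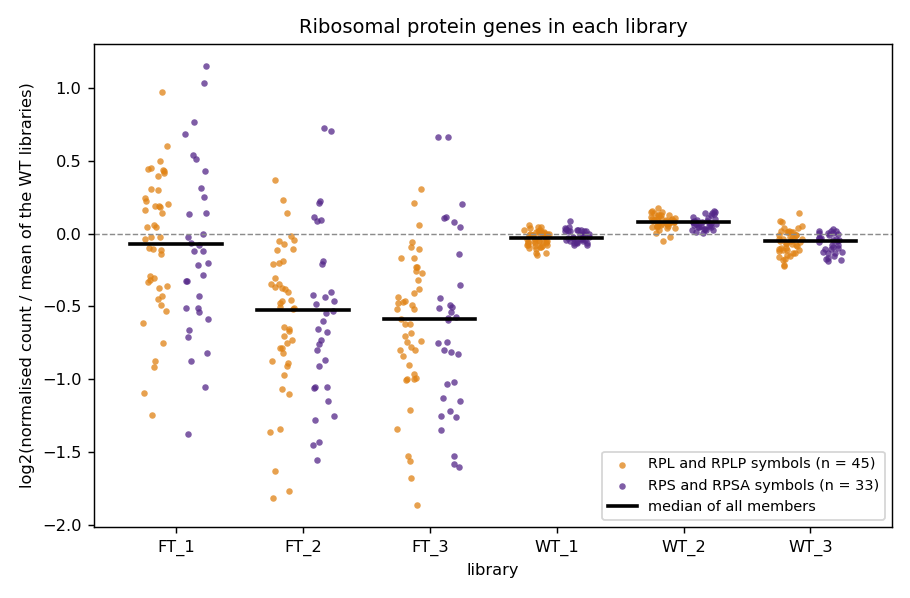
Each point is 1 of the 78 ribosomal protein genes tested, drawn per library as the log2 ratio of its normalised count to the mean of the 3 WT libraries, with large-subunit symbols in orange, small-subunit symbols in purple and the median as a black bar. The medians were −0.07, −0.52 and −0.59 in FT_1, FT_2 and FT_3 against −0.03, 0.08 and −0.05 in the WT libraries. The points of each FT library were spread far wider than those of any WT library. Each gene is set against its own WT mean, so this spread holds the differences between groups. It does not measure scatter among FT libraries.

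Gene by gene, more ribosomal protein transcripts were lower than higher in FT cells, but by unequal amounts. Counts were compared with edgeR's quasi-likelihood test after TMM scaling, and a gene was called at a Benjamini-Hochberg adjusted p under 0.05 over the 13482 genes tested. Of the 80 genes, 78 had enough counts to be tested, all but RPL3L and the second RPS29. Of these, 30 were lower in FT cells and 2 were higher, whereas among all genes tested 18.9% were lower and 20.1% were higher. With libraries scaled to the ribosomal protein genes themselves, 16 of the 78 were lower and 17 higher, beside 5.12% and 31.2% of all genes. That balance follows from centring on these genes. With TMM scaling the remaining 46 were not called, 30 of them with a log2 fold change below 0. The median log2 fold change was −0.37 for the 78 genes and 0.03 for all genes tested. In normalised counts, 38 genes were lower in every FT library than in any WT library and 9 were higher, beside 29.4% and 28.3% of all genes.

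The number of genes called depended on FT_1. Without it, 62 of 79 genes then tested were lower and 5 were higher, among them RPL18, RPS2 and RPS16, beside 31.5% and 30.6% of all genes, and the median was −0.56 against −0.02 for all genes. All 32 genes called with FT_1 were also called without it, in the same direction. Leaving out another library lowered the count of lower genes, to 15 without FT_2, 17 without FT_3, 14 without WT_1, 12 without WT_2 and 20 without WT_3, beside 14.2%, 14.4%, 11.1%, 11.3% and 12.6% of all genes. Each time 2 were higher, beside 15.3%, 15.6%, 11%, 11.6% and 13% of all genes, so calls were lost over the whole table as well. Among the FT libraries the normalised count was highest in FT_1 for 76 of the 78 genes, all but RPL22L1 and RPS19BP1, which was so for 44.3% of all genes. The level in FT_1 was a median of 1.44 times the mean of FT_2 and FT_3, from 0.854 times for RPS19BP1 to 1.98 times for RPL17, where the median over all genes was 0.997 times. FT_1 was below every WT library for 39 genes and above every WT library for 31, beside 43.9% and 43.4% of all genes. FT_2 was below every WT library for 63 and FT_3 for 66, beside 42.9% of all genes for each.

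Other tools and scalings were set beside these counts. On FPKM, limma called 39 of 79 genes lower and 2 higher, beside 29.2% and 15% of all genes, and all 32 genes called by edgeR were among its 41. DESeq2 called 33 of 80 lower and 3 higher, beside 19.5% and 21.3% of all genes. With total counts as the only scaling 35 of 78 were lower and 2 higher, beside 25.2% and 15.2% of all genes, and with a term for library number 20 were lower and 2 higher, beside 12.9% and 13.6%.

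**Figure D2:**
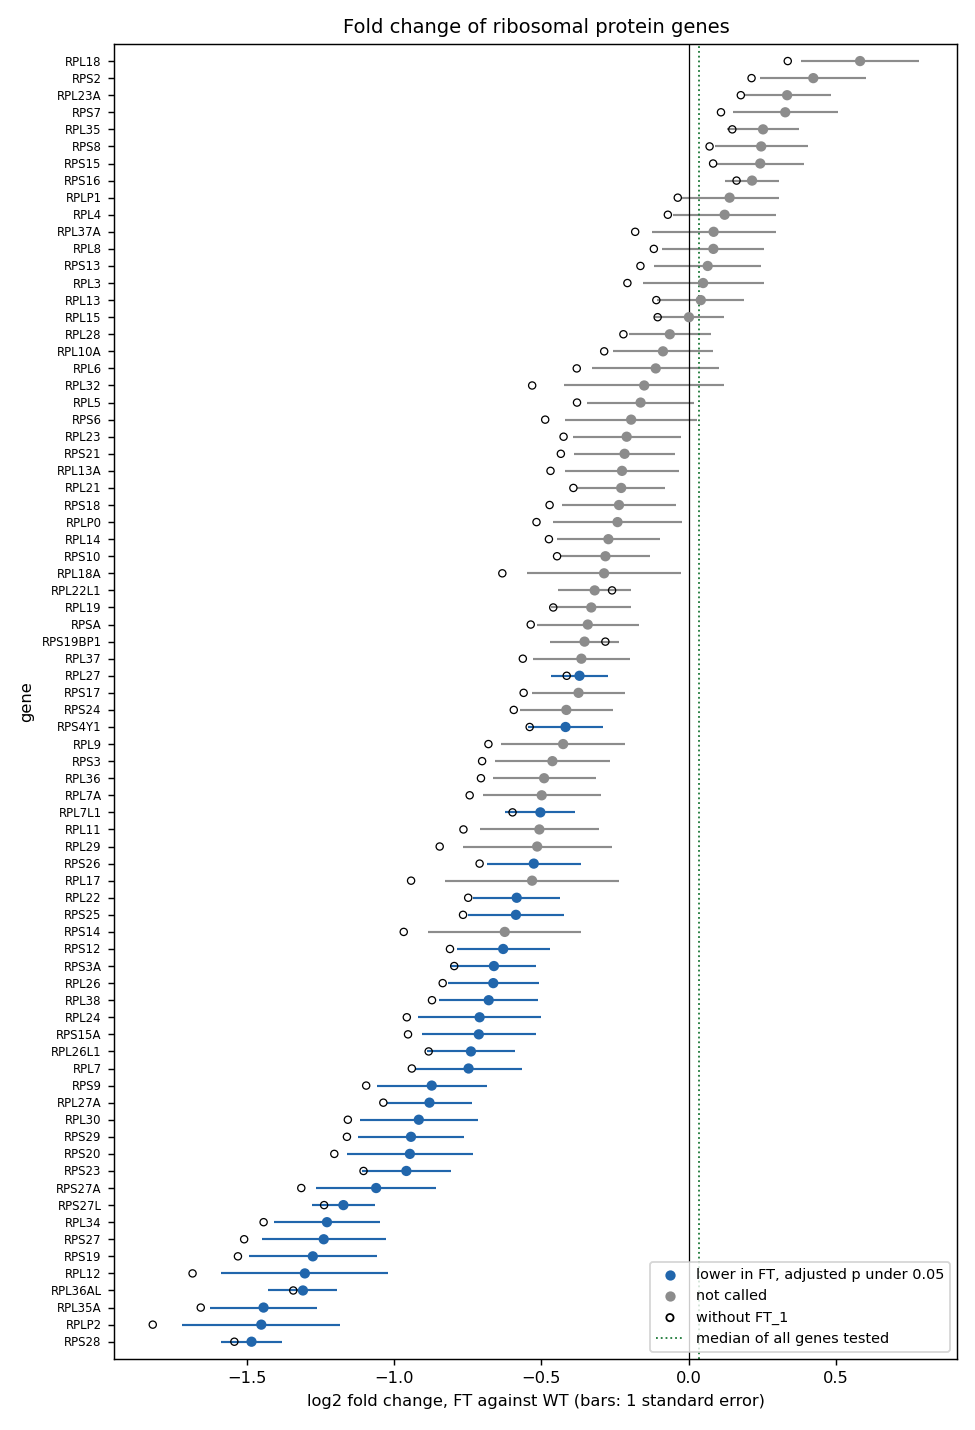
Fitted log2 fold change of FT against WT for 76 of the 78 genes tested, with 1 standard error, ordered by size; blue marks genes called lower in FT cells, grey marks genes not called, open circles give the value without FT_1 and the dotted line is the median of all genes tested. The lowest value is −1.48 for RPS28, and the median of the genes tested was −0.37 with FT_1 and −0.56 without it. Scaled to the pool of ribosomal protein genes, 17 genes are higher and 16 lower, beside 31.2% and 5.12% of all genes.

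The stalk of the large subunit, which draws elongation factors to the ribosome, is built on RPLP0, with RPLP1 and RPLP2 bound to it as dimers and RPL12 at its base. Its genes did not move together, since RPLP2 and RPL12 fell and RPLP0 and RPLP1 were not called. The FPKM of RPLP2 was 229.6, 124 and 115 in FT_1, FT_2 and FT_3 and 476, 495 and 453 in WT_1, WT_2 and WT_3. All FT libraries were far below all WT libraries, and FT_1 was the highest FT library. RPLP2 fell by 1.45 log2 units in counts (standard error 0.27, adjusted p = 0.00865 by edgeR's quasi-likelihood test with Benjamini-Hochberg adjustment, lower in 3 of 3 FT libraries), and its value was −1.82 without FT_1. RPL12 had an FPKM of 595, 279 and 329 in the FT libraries and 1065, 1174 and 1061 in the WT libraries, again with no overlap and with FT_1 nearest to WT. In counts it stood at a log2 fold change of −1.30 (standard error 0.28, edgeR with Benjamini-Hochberg adjusted p = 0.0148) and −1.68 without FT_1, and the call was lost without FT_3, WT_1 or WT_2 (adjusted p = 0.0502, 0.052 and 0.0589).

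RPLP0, the scaffold of the stalk and the reference transcript of the study's RT-qPCR, stood at an FPKM of 2615, 1576 and 1555 in FT_1, FT_2 and FT_3 and 2413, 2487 and 2659 in WT_1, WT_2 and WT_3. FT_1 lay within the WT range and the other FT libraries well under it. In counts the log2 fold change came to −0.24 (standard error 0.22, edgeR with Benjamini-Hochberg adjusted p = 0.42), −0.52 without FT_1 (adjusted p = 8.7e-05) and 0.15 relative to the pool of ribosomal protein genes. RPLP1, its partner, had an FPKM of 2986, 2138 and 2057 in the FT libraries and 2259, 2346 and 2662 in the WT libraries. FT_1 was above and FT_2 and FT_3 below every WT library, and the log2 fold change was 0.14 (standard error 0.17, edgeR with Benjamini-Hochberg adjusted p = 0.542), −0.04 without FT_1 and 0.55 relative to the pool (adjusted p = 0.0289).

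Ratios within a library do not depend on how libraries are scaled to one another. The ratio of RPLP2 to RPLP0 in FPKM was 0.0878, 0.0788 and 0.0740 in FT_1, FT_2 and FT_3, and 0.197, 0.199 and 0.171 in WT_1, WT_2 and WT_3. All 3 FT libraries, FT_1 included, were under all WT libraries, and the mean ratio was 2.36 times higher in WT than in FT cells. The ratio of RPLP1 to RPLP0 was 1.14, 1.36 and 1.32 in the FT libraries and 0.936, 0.943 and 1.001 in the WT libraries, higher in all FT libraries. These pairs were picked after their values had been seen, so no test is given for them.

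RPL5 and RPL11 enter the large subunit with 5S rRNA and, when free, bind the p53 regulator MDM2. Neither was called by edgeR with all libraries, and it called both lower without FT_1. On FPKM with all libraries, limma called RPL11 lower (adjusted p = 0.0369) but not RPL5 (adjusted p = 0.187). RPL5 was at an FPKM of 722, 487 and 462 in the FT libraries and 680.0, 736 and 668 in the WT libraries, with FT_1 inside the WT range. RPL11 was at 317, 200.4 and 189 and 361, 395 and 361, with all FT libraries under all WT libraries. By edgeR with Benjamini-Hochberg adjustment the log2 fold change was −0.16 for RPL5 (adjusted p = 0.509; −0.38 and 0.000692 without FT_1) and −0.51 for RPL11 (adjusted p = 0.094; −0.76 and 8.25e-06 without FT_1).

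Around the mouth of the tunnel through which the new protein leaves, 5 of 7 listed genes had a symbol in the table, and 1 of the 5, RPL26, was called, no more than the 18.9% of all genes that were lower would give. Without FT_1 3 of the 5 were lower, beside 31.5% of all genes. The FPKM of RPL26 was 970.0, 696 and 677 in the FT libraries and 1292, 1476 and 1364 in the WT libraries, without overlap. RPL26 fell by 0.66 in log2 units (standard error 0.15, edgeR with Benjamini-Hochberg adjusted p = 0.0188), and by 0.83 without FT_1. The call was lost without any 1 of the other 5 libraries, with a term for library number (adjusted p = 0.0603), with the length trend removed (−0.35, adjusted p = 0.0939) and relative to the pool (−0.25, adjusted p = 0.166). RPL17, also among the 3 most abundant genes, had the largest ratio of FT_1 to the mean of the other FT libraries in normalised counts, with an FPKM of 1841, 941 and 866 in FT_1, FT_2 and FT_3 against 1946, 2138 and 1775 in WT_1, WT_2 and WT_3. FT_1 was within the WT range, while FT_2 and FT_3 were under it. The fitted log2 fold change of RPL17 was −0.53 (standard error 0.30, edgeR with Benjamini-Hochberg adjusted p = 0.201) with FT_1 and −0.94 (adjusted p = 8.54e-06) without it.

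Over the whole large subunit 15 of 45 genes fell and 30 were not called, beside 18.9% of all genes lower, with a median log2 fold change of −0.33. Without FT_1 36 fell and 1, RPL18, rose, beside 31.5% and 30.6% of all genes. The largest falls outside the stalk were in RPL35A, RPL36AL and RPL34. RPL35A, a gene mutated in some patients with Diamond-Blackfan anaemia, had an FPKM of 421, 285 and 272 in FT_1, FT_2 and FT_3 and 1016, 1042 and 899 in WT_1, WT_2 and WT_3. No FT library reached the lowest WT library, and the mean was 326 ± 82.8 in FT and 986 ± 76.6 in WT cells (SD, n = 3). The log2 fold change in counts was −1.44 (standard error 0.18, edgeR with Benjamini-Hochberg adjusted p = 0.00254), and −1.66 without FT_1. RPL34 had an FPKM of 105, 73.6 and 64.8 in the FT libraries and 211, 222 and 201 in the WT libraries, likewise without overlap, and fell by 1.23 (standard error 0.18, edgeR with Benjamini-Hochberg adjusted p = 0.00392; −1.44 without FT_1).

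At the other end of the large subunit, RPL18 is named for its value. It had an FPKM of 1063, 685 and 648 in the FT libraries and 576, 645 and 563 in the WT libraries. Every FT library was above every WT library, FT_1 by far the most and FT_3 by little. The log2 fold change was 0.58 (standard error 0.20), not called with FT_1 (edgeR with Benjamini-Hochberg adjusted p = 0.0635). Without FT_1 it was 0.34 and called (adjusted p = 0.00253). With all libraries RPL18 was called higher by DESeq2 (adjusted p = 0.0213) and with the length trend removed (0.76, adjusted p = 0.0288). It was not called by limma (adjusted p = 0.179) or with total counts (adjusted p = 0.151). RPL3, which shapes the centre where peptide bonds form, had 1266, 796 and 763 in the FT and 964, 1054 and 1023 in the WT libraries, with FT_1 above and FT_2 and FT_3 below every WT library. Its log2 fold change was 0.05 with all libraries (edgeR with Benjamini-Hochberg adjusted p = 0.869), −0.21 without FT_1 (adjusted p = 0.0166) and 0.44 relative to the pool.

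In the small subunit 15 of 32 genes fell and 2 rose, beside 18.9% and 20.1% of all genes, with a median log2 fold change of −0.44. Without FT_1 25 of 33 fell and 4 rose, beside 31.5% and 30.6% of all genes. RPS19BP1 is not counted here. In the head of the subunit, which holds the mRNA path together with the body, the median was −0.52 over 14 genes, and in the body and platform it was −0.38 over 16.

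Among the largest falls was that of RPS28, a small protein of the head near the exit of the mRNA channel (ENSBTAG00000002468, chromosome 7, bases 16968061 to 16969193 as listed by the authors, whose build is not named in the study's text). Its FPKM was 181, 156 and 158 in FT_1, FT_2 and FT_3 and 546, 541 and 456 in WT_1, WT_2 and WT_3. The FT libraries were close to one another, FT_1 included, and all lay far under the WT libraries. The mean was 165 ± 13.7 in FT and 514 ± 50.8 in WT cells (SD, n = 3), and in counts the gene was 2.79-fold lower. Its log2 fold change was −1.48 (standard error 0.10, edgeR with Benjamini-Hochberg adjusted p = 0.000688), −1.54 without FT_1 and −1.04 relative to the pool.

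RPS19, the gene most often mutated in Diamond-Blackfan anaemia and needed for maturation of the small subunit, had an FPKM of 298, 195 and 174 in the FT libraries and 609.7, 661 and 527 in the WT libraries. RPS27A, which is made as a fusion with ubiquitin, had 771, 491 and 462 and 1289.6, 1420.0 and 1292. Both were lower in all FT than in all WT libraries, with FT_1 the highest of the FT libraries. On the log2 scale RPS19 fell by 1.28 (standard error 0.22, adjusted p = 0.00649) and RPS27A by 1.06 (standard error 0.20, adjusted p = 0.00976), both by edgeR's quasi-likelihood test with Benjamini-Hochberg adjustment. Without FT_1 their log2 fold changes were −1.53 and −1.31.

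Of the body of the small subunit, RPS6 and RPSA were not called. RPS6, whose protein is phosphorylated by the S6 kinases when mTOR is active, had an FPKM of 1132, 675 and 647 in the FT and 1008, 1102 and 1016 in the WT libraries, with FT_1 above and FT_2 and FT_3 below every WT library. RPSA, which is also known as a laminin receptor, had 767, 527 and 519 and 823, 873 and 864, with every FT library under every WT library in FPKM but not in normalised counts. Neither was called by edgeR (log2 fold change −0.20, Benjamini-Hochberg adjusted p = 0.521 for RPS6 and −0.34, adjusted p = 0.163 for RPSA), and without FT_1 the values were −0.49 (adjusted p = 0.000121) and −0.54 (adjusted p = 3.91e-05).

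**Figure D3:**
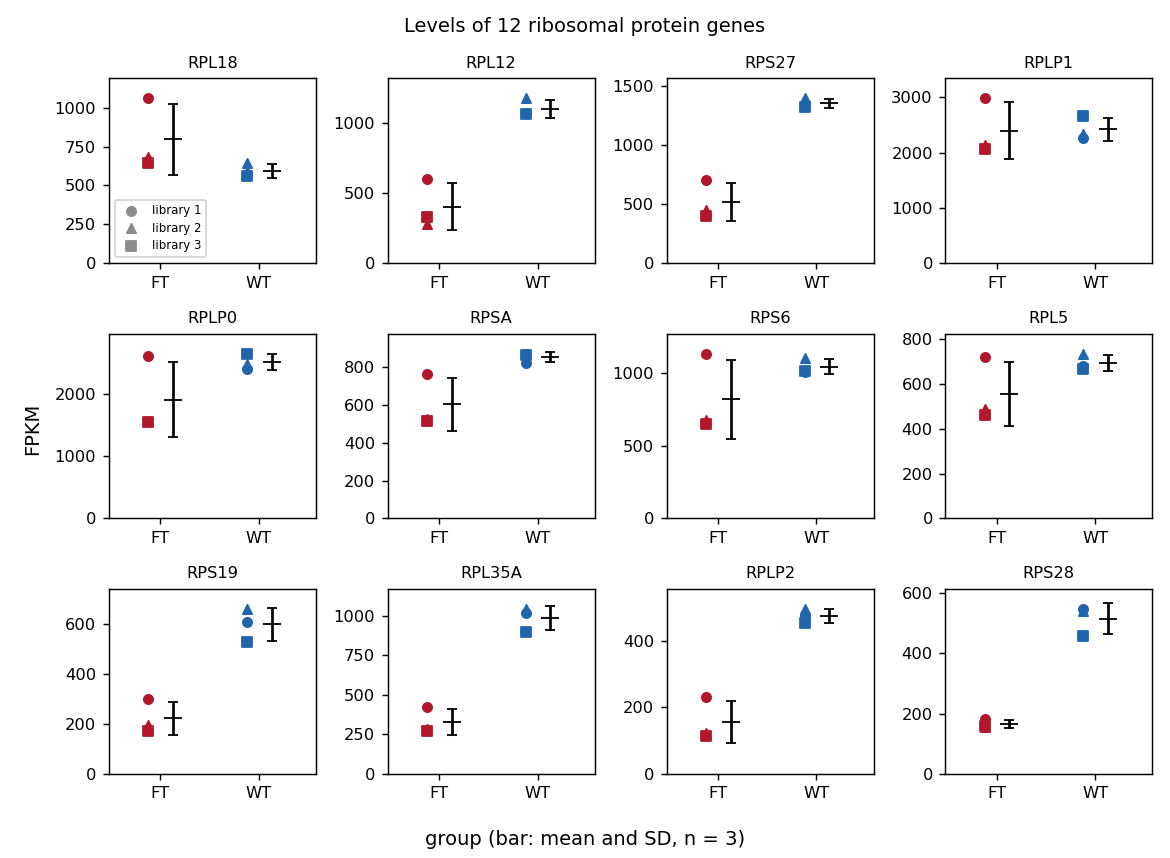
FPKM of 12 ribosomal protein genes in the 3 FT libraries (red) and the 3 WT libraries (blue), with a marker shape for each library number and the mean and SD of each group (n = 3) in black, every axis starting at 0. RPL18 is higher in every FT library and RPSA, RPS19, RPS27, RPL12, RPL35A, RPLP2 and RPS28 are lower in every FT library, while the groups overlap for RPLP1, RPLP0, RPS6 and RPL5, where the FT_1 circle lies far above the other FT points.

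By the threshold of the study's methods, an unadjusted p under 0.05 with a log2 fold change over 1 or under −1, 10 genes were lower in FT cells, beside 8.96% of all genes tested. They were RPS28, RPLP2, RPL35A, RPL36AL, RPL12, RPS19, RPS27, RPL34, RPS27L and RPS27A. In normalised counts all 10 were lower in all FT than in all WT libraries, beside 29.4% of all genes. Genes picked by p and fold in the same libraries are likely to show this, so it adds no support of its own. Without FT_1 the number was 16, beside 12.2% of all genes. With or without FT_1, 0 were higher, beside 10.2% and 11% of all genes, where edgeR had 3 higher at an unadjusted p under 0.05 without regard to fold. By limma 16 were lower and 0 higher (8.38% and 3.77% of all genes) and by DESeq2 10 and 0 (7.87% and 8.85%). Total counts gave 16 and 0 (11.6% and 8.06%) and the term for library number 10 and 0 (8.75% and 8.55%). With the length trend removed 6 were lower and 2 higher (8.36% and 10.3%). Relative to the pool 3 were lower and 2 higher with FT_1 (4.17% and 21.4%) and without it (5.7% and 27.8%). Pool-relative changes of the 10 were smaller, from −1.08 for RPLP2 to −0.66 for RPS27A.

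Several ribosomal proteins have a second gene that encodes a variant, and the data allow the variant to be set beside its ordinary partner within each library. RPS27L, a p53-responsive copy of RPS27, had an FPKM of 206, 175 and 178 in the FT and 478, 509 and 421 in the WT libraries. RPS27 itself had 699, 447 and 397 and 1342, 1393 and 1315. Both members of this pair fell, by 1.17 for RPS27L (standard error 0.11, adjusted p = 0.00114) and by 1.24 for RPS27 (standard error 0.21, adjusted p = 0.00654) on the log2 scale by edgeR with Benjamini-Hochberg adjustment, and were at −1.24 and −1.51 without FT_1. The ratio of RPS27L to RPS27 was 0.295, 0.393 and 0.449 in FT_1, FT_2 and FT_3 and 0.356, 0.366 and 0.320 in WT_1, WT_2 and WT_3, with FT_1 under and the other FT libraries over the WT range.

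RPL22L1, the partner of RPL22, had an FPKM of 146, 169 and 154 in the FT libraries and 226, 241 and 187 in the WT libraries, and RPL22 132, 94.8 and 94.0 and 182, 189 and 165. For both, all FT libraries were lower in FPKM, and RPL22L1 overlapped in normalised counts. RPL22 fell by 0.58 (edgeR with Benjamini-Hochberg adjusted p = 0.0246) and by 0.75 without FT_1, a call that was lost without any 1 of the other libraries and relative to the pool (−0.17). RPL22L1, at −0.32 (adjusted p = 0.0872), was not called by edgeR and was −0.26 (adjusted p = 0.0442) without FT_1. With all libraries it was called lower by limma and with total counts, both at −0.47 (adjusted p = 0.0233 and 0.0254). With the length trend removed it was not called (−0.14, adjusted p = 0.366). The ratio of RPL22L1 to RPL22 was 1.11, 1.79 and 1.64 in the FT and 1.24, 1.28 and 1.14 in the WT libraries, lowest in FT_1 and highest in FT_2.

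The 2 remaining pairs had a rare variant. RPL26L1 was at an FPKM of 34.8, 24.5 and 27.2 in the FT and 48.5, 58.6 and 53.8 in the WT libraries, and RPL7L1, which acts in ribosome assembly, at 35.1, 30.3 and 26.7 and 44.3, 52.4 and 49.0. In both, no FT library reached a WT library, as was so for RPL7 (1114, 799 and 723 in the FT and 1656, 1792 and 1478 in the WT libraries). RPL26L1 fell by 0.74, RPL7L1 by 0.50 and RPL7 by 0.75 in log2 units (edgeR with Benjamini-Hochberg adjusted p = 0.0116, 0.0193 and 0.0212), and they were at −0.88, −0.60 and −0.94 without FT_1. These calls were not firm. That of RPL26L1 was lost without WT_2, that of RPL7L1 without FT_2, FT_3, WT_2 or WT_3, both with a term for library number (adjusted p = 0.0509 and 0.0652), and that of RPL7 without FT_2, FT_3, WT_1 or WT_2. Relative to the pool the values were −0.32, −0.07 and −0.34 (adjusted p = 0.128, 0.71 and 0.0792), and with the length trend removed RPL26L1 and RPL7 were not called (−0.46 and −0.55, adjusted p = 0.0523 and 0.0534). Over the 4 pairs the exact two-sided permutation test of the log2 ratio, which cannot go below 0.10 with 3 libraries against 3, gave p = 0.20 for RPL7L1 to RPL7, 0.40 for RPL22L1 to RPL22, 0.40 for RPL26L1 to RPL26 and 0.60 for RPS27L to RPS27. Adjusted over these 4 by Benjamini-Hochberg, the exact permutation p was 0.53 for all but the last, at 0.60, and the groups overlapped in every ratio.

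RPL36AL, a near-identical autosomal copy of RPL36A, is in the table without its partner. It had an FPKM of 128, 118 and 116 in FT_1, FT_2 and FT_3 and 339.6, 378 and 286 in WT_1, WT_2 and WT_3. Like RPS28, it was at nearly the same level in all FT libraries and far under the WT libraries. It fell by 1.31 in log2 units (standard error 0.12, edgeR with Benjamini-Hochberg adjusted p = 0.00111; −1.34 without FT_1), and reads of its partner could be counted in it.

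The genes at the edge of the rule behaved as follows. RPS19BP1 had an FPKM of 31.3, 37.7 and 33.6 in the FT and 47.6, 54.3 and 44.6 in the WT libraries, all FT libraries lower, with a log2 fold change of −0.35 that was not called (edgeR with Benjamini-Hochberg adjusted p = 0.0584; −0.28 and 0.0362 without FT_1). With all libraries RPS19BP1 was called lower by DESeq2, by limma and with total counts (adjusted p = 0.0466, 0.0126 and 0.0167). With the length trend removed it was not called (−0.09, adjusted p = 0.537). The second RPS29 (ENSBTAG00000025666, chromosome 10, bases 26779223 to 26779393) had 6 to 33 counts per library, where the first had 5274 to 19046. RPL3L had 0 to 11 counts per library and was at or near 0 throughout.

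Some ribosomal proteins have names that escape the rule. FAU, which carries RPS30 fused to a ubiquitin-like protein, had an FPKM of 307, 251 and 221 in the FT and 452, 491 and 464 in the WT libraries. It was lower in all FT libraries and fell by 0.70 in log2 units (standard error 0.13, edgeR with Benjamini-Hochberg adjusted p = 0.00789). FAU was at −0.82 without FT_1 and at −0.28 relative to the pool, where it was not called (adjusted p = 0.148). RACK1, a signalling scaffold on the head of the small subunit, had 1034, 699 and 668 and 635, 695 and 640.3. Its groups overlapped in FPKM, and it was not called with all libraries (log2 fold change 0.44, edgeR with Benjamini-Hochberg adjusted p = 0.103), whereas without FT_1 it was at 0.23 (adjusted p = 0.0111).

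Because the share of RNA in these genes differed between the FT libraries themselves, each library was also scaled to the geometric mean of the ribosomal protein genes, a step chosen after the data had been seen. This shows how the genes stood relative to one another, and it moved the median of all genes from 0.03 to 0.47. Relative to the pool, 17 genes were higher and 16 lower in FT cells, beside 31.2% and 5.12% of all genes tested on the same scale, and 27 and 26 without FT_1, beside 59.5% and 11.5%. All 16 lower genes were among the 30 that were lower with TMM scaling, whereas 2 of the 17 higher genes were higher with TMM scaling. Scaling to the pool moves all genes upward together, so this nesting largely follows from the scaling. All 33 were called in the same direction without FT_1. In normalised values relative to the pool, 31 genes were higher and 27 lower in every FT library, beside 40.9% and 12.5% of all genes.

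On this scale each FT library, FT_1 included, was closer to the other FT libraries than to any WT library. The SD over the 78 genes of the log2 difference between libraries, a measure that does not depend on the scaling, was 0.07 between FT_2 and FT_3, 0.22 between FT_1 and either of them, and 0.06 to 0.12 between WT libraries. Between an FT and a WT library it was 0.50 to 0.55, for FT_1 from 0.50 to 0.54. Over 11230 genes the SD was 1.08 between FT_1 and either FT_2 or FT_3, and 1.24 to 1.27 between FT_1 and a WT library. Between FT_2 or FT_3 and a WT library it was 0.85 to 0.91 over those genes. Within FT cells some genes still differed relative to the pool, with RPL22L1 at −0.36, 0.38 and 0.32 and RPL17 at 0.14, −0.31 and −0.36 in FT_1, FT_2 and FT_3.

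**Figure D4:**
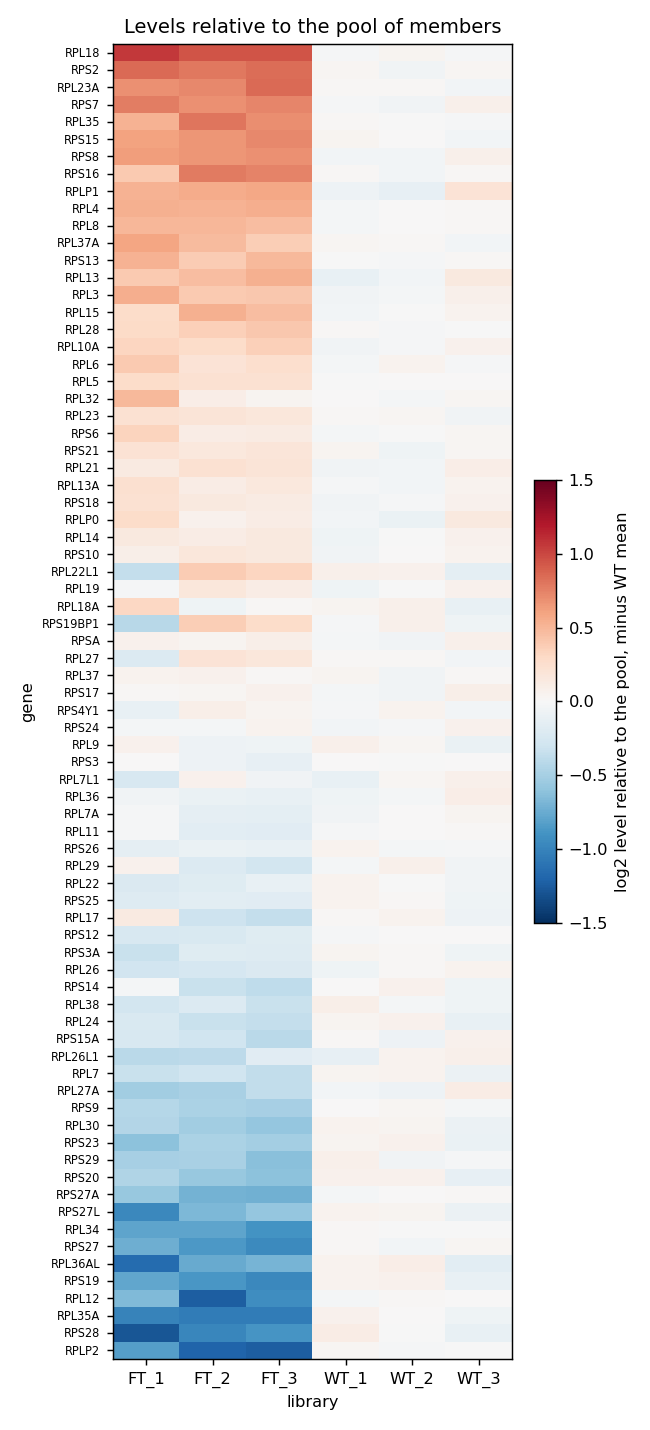
Log2 level of 76 of the 78 genes tested in each library after scaling to the geometric mean of all 78, as the difference from the WT mean, ordered by the mean over the FT libraries; red is higher and blue lower than in WT cells, relative to the pool. The FT columns share most of their order, with exceptions in FT_1 such as RPL22L1, and RPS28 and RPLP2 are at the bottom. The WT columns are nearly blank, in part because each gene is centred on its WT mean.

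The fold changes varied with gene length and level. Ribosomal protein genes are short, with a relative length (count over FPKM, in units of the same arbitrary size for all genes) of 0.349 at the median of the 78 and 1.01 at the median of all genes tested. Among the 26 shortest the median log2 fold change was −0.56, with 14 lower. The 26 of middle length had a median of −0.36, with 8 lower and 2 higher, and the 26 longest −0.24, with 8 lower, where 18.9% of all genes were lower and 20.1% higher. Across the 78 genes Spearman's rho of length with log2 fold change was 0.19, where all 13482 genes tested gave 0.17, and that of mean FPKM with log2 fold change was 0.36, as a description of genes that share the same libraries. With a smooth trend on length removed, 18 genes were lower and 6 higher, beside 19% and 19.6% of all genes, and the median moved from −0.37 to −0.16. RPS28, RPLP2 and RPL35A were still lower in that fit, at log2 fold changes of −1.13, −1.20 and −1.14 (edgeR with Benjamini-Hochberg adjusted p = 0.00102, 0.0161 and 0.00417).

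Other parts of the translation machinery were read from lists of genes. The mitochondrial ribosome has its own proteins, named MRPL and MRPS. Of the 77 genes for them 39 fell and 6 rose, beside 18.9% and 20.1% of all genes. Their median log2 fold change was −0.42, and −0.02 relative to the cytosolic pool. Without FT_1 50 of these genes were lower and 7 higher, beside 31.5% and 30.6% of all genes, with a median of −0.46. Their summed FPKM was 1530.0, 1457 and 1385 in FT_1, FT_2 and FT_3, against 2025, 2204 and 2008 in WT_1, WT_2 and WT_3. All FT libraries, FT_1 included, lay under all WT libraries. MRPL33 had the largest fall, at an FPKM of 10.6, 11.1 and 11.3 in the FT and 32.7, 50.1 and 32.8 in the WT libraries, and MRPL36 the largest rise, at 29.1, 26.4 and 24.9 and 9.77, 9.82 and 9.30. The log2 fold changes were −1.64 and 1.63 (edgeR with Benjamini-Hochberg adjusted p = 0.00253 and 0.00115), −1.60 and 1.58 without FT_1, for a pair of genes named for their values.

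Of 6 genes with an elongation factor symbol, 2 fell and 4 were not called, beside 18.9% of all genes lower (median −0.31). Most of their proteins act in bringing aminoacyl-tRNA or moving the ribosome, and 1 (EEF1E1) belongs to a tRNA synthetase complex. Without FT_1 4 were lower and 1 higher, beside 31.5% and 30.6% of all genes, with a median of −0.45. EEF1A1, the most abundant, had an FPKM of 1529, 1874 and 1563 in the FT and 2574, 2645 and 2605 in the WT libraries, with every FT library lower, and its log2 fold change was −0.50 (edgeR with Benjamini-Hochberg adjusted p = 0.0466; −0.43 without FT_1). EEF1D fell by 0.62 (adjusted p = 0.0268 in the same test; −0.81 without FT_1). The factor eIF3 holds the small subunit ready for the mRNA. Among its 12 genes 2 were higher (EIF3J and EIF3H) and 10 not called, no larger a share than the 20.1% of all genes (median 0.19). On FPKM limma called 0 higher and 1 lower, beside 15% and 29.2% of all genes, with a median of 0.02. In this list the median was 0.62 relative to the pool, and without FT_1 5 were higher and 2 lower, beside 30.6% and 31.5% of all genes.

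Of 7 other mRNAs with the same pyrimidine start 2 were higher and 2 lower, too few to set apart from the 20.1% and 18.9% of all genes. Without FT_1 2 were higher and 3 lower, beside 30.6% and 31.5% of all genes. TPT1, a growth-related protein and the most abundant of the 7, had an FPKM of 3082, 2199.9 and 2179 in FT_1, FT_2 and FT_3 and 1387, 1420.1 and 1398 in WT_1, WT_2 and WT_3. HNRNPA1, an RNA-binding protein of splicing, had 306, 241 and 240.4 and 583, 647 and 601. TPT1 was higher and HNRNPA1 lower in every FT library, with log2 fold changes of 0.98 and −1.06 (edgeR with Benjamini-Hochberg adjusted p = 0.00511 and 0.00207; 0.81 and −1.17 without FT_1). EIF4B also rose and NACA fell, by 0.55 and −0.47 (adjusted p = 0.00865 and 0.0308 in the same test; 0.47 and −0.59 without FT_1).

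Of the signalling genes that control the ribosomal protein mRNAs, 4 of 12 tested rose and 8 were not called, beside 20.1% of all genes higher. The median log2 fold change was 0.50. Without FT_1 it was 0.27, with 8 higher and 1 lower, beside 30.6% and 31.5% of all genes. By limma 2 were higher and 1 lower, beside 15% and 29.2% of all genes. With the length trend removed 2 were higher, beside 19.6% of all genes. EIF4EBP1, an inhibitor of translation that mTOR switches off, had an FPKM of 66.9, 57.7 and 57.9 in the FT and 36.4, 37.0 and 37.4 in the WT libraries, with no overlap, and rose by 0.88 in log2 units (standard error 0.08, edgeR with Benjamini-Hochberg adjusted p = 0.00119; 0.82 without FT_1). Its paralogue EIF4EBP2 had 42.3, 30.4 and 25.3 and 53.9, 52.1 and 54.3, lower in every FT library, and was not called (log2 fold change −0.55, edgeR with Benjamini-Hochberg adjusted p = 0.0529), but it was called lower without FT_1 (−0.77, adjusted p = 3.04e-05) and by limma (adjusted p = 0.021). The mTOR inhibitor TSC2 and the mTOR partners RPTOR and LARP1 rose by 0.89, 0.60 and 0.35 (adjusted p = 0.0469, 0.0106 and 0.0428 in the same test; 0.51, 0.55 and 0.26 without FT_1), and limma did not call TSC2 (adjusted p = 0.101) or LARP1 (adjusted p = 0.203). MYC, a transcription factor that drives ribosome production, was at an FPKM of 95.5, 16.1 and 16.3 in FT_1, FT_2 and FT_3 and 19.4, 23.9 and 18.9 in WT_1, WT_2 and WT_3. FT_1 was the only library above the others, with FT_2 and FT_3 under all WT libraries, and MYC was not called with FT_1 or without it (edgeR with Benjamini-Hochberg adjusted p = 0.243 and 0.143). The high value of MYC fell in the library where ribosomal protein genes were highest among FT libraries, and its part in that result was not tested. Among 7 chaperones and partners of ribosomal proteins GRWD1 was higher, BCCIP lower and 5 not called, beside 20.1% and 18.9% of all genes (log2 fold change 0.48 and −0.37, edgeR with Benjamini-Hochberg adjusted p = 0.036 and 0.0307; 0.34 and −0.40 without FT_1). limma did not call GRWD1 (adjusted p = 0.127).

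**Figure D5:**
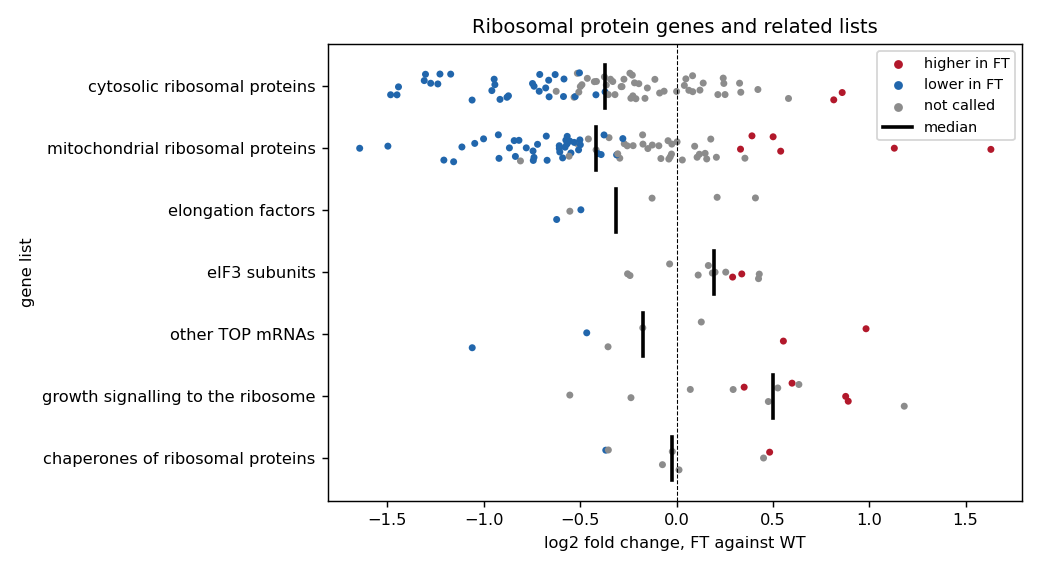
Log2 fold change of FT against WT for each gene tested in the cytosolic ribosomal protein genes and 6 related lists, with genes called higher in red, called lower in blue and not called in grey, and the median of each list as a black bar. The medians were −0.37 for the cytosolic and −0.42 for the mitochondrial ribosomal proteins, −0.31 for elongation factors, 0.19 for eIF3 and 0.50 for growth signalling, and relative to the pool of cytosolic genes each of these medians is higher, at 0.04, −0.02, 0.11, 0.62 and 0.94.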

How the data were processed

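RNA was measured in 6 libraries, 3 per group. The counts and FPKM values per gene that the authors deposited came from reads aligned with HISAT and quantified with StringTie and edgeR, and FPKM is scaled by gene length and library total. The submitters' processing notes list Bowtie 0.12.2, HISAT2 2.0, StringTie 1.3.0 and a mouse build, mm8, and the coordinates are given as deposited. Counts were tested with edgeR 4.0.16 in R 4.3.3 (quasi-likelihood, filterByExpr, TMM, 13482 genes), with Benjamini-Hochberg adjustment over all genes tested. Alternatives were DESeq2 1.42.0 and limma 3.58.1, the latter run on log2(FPKM + 1) where mean FPKM reached 0.5. Members and lists were chosen with earlier results of these data known. Named genes are the stalk and 5S proteins, RPS6, RPS19, RPSA, RPS27A, paralogues with their partners, FAU and RACK1, up to 5 largest called rises and falls without overlap, the 3 highest and 3 lowest by FPKM, and those past the study's threshold. All 79 symbols were found in RefSeq (ARS-UCD2.0), used for names only.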

Additional observations from a re-analysis of the deposited data

How the results depend on the processing

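Of the 78 genes, 2 higher and 30 lower were called as described. These counts held exactly with median-ratio scaling and with the members left out of the totals, and within 1.5 times with total counts (2 and 35), no filter (2 and 29), DESeq2 (3 and 33) and limma (2 and 39, or 2 and 40 with a pseudocount of 0.1). The median of all genes was −0.12 in limma and with total counts. limma without a filter called 0 higher, with 2 at an unadjusted p under 0.05. Shares of all genes were not counted for median-ratio scaling, the members left out, no filter, the pseudocount of 0.1 or limma without a filter. Those for total counts, DESeq2 and limma are given above. The study's threshold gave 0 higher and 10 lower, and 0 and 16 without FT_1 as well, with 0 higher by limma and DESeq2 too and 3 higher at an unadjusted p under 0.05 in edgeR. An adjusted p under 0.01 left 2 higher and 12 lower, and no share of all genes was counted at that level. With the length trend removed there were 6 higher and 18 lower, beside 19.6% and 19% of all genes, and a median of −0.16. Scaling to the pool, chosen after seeing the data, gave 17 higher and 16 lower, beside 31.2% and 5.12% of all genes, and a median of 0.038. Without FT_1 as well 27 were higher, beside 59.5% of all genes. Leaving out each library in turn gave 2 to 5 higher, 12 to 62 lower and medians from −0.56 to −0.33. Each of these fits had fewer libraries, and the part this played was not tested. RPL3, at 0.05, ran from −0.21 without FT_1 to 0.17 without FT_3, and was −0.10 with total counts and −0.14 in limma. The cause of these shifts was not tested either. Same-numbered libraries came from different fetuses, and their deviations did not go together (correlations −0.01, −0.03 and 0.05). With 3 libraries per group and FT_1 far from the other FT libraries, these values cannot tell whether same-numbered libraries shared a step. The replicate block gave 2 higher and 20 lower, beside 13.6% and 12.9% of all genes, with a median of −0.39. With the length trend removed as well it gave 4 higher and 12 lower, where no share of all genes was counted. Among the named genes, 471 values over all alternatives kept direction and side of the threshold, 44 lost the call, 27 gained it, 15 changed sign without a call and 1, RPL3, changed sign with one.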

Other observations

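RPS4Y1 is the name the table gives to a gene on chromosome 23, although the symbol belongs to the Y chromosome in other species, and whether it is a copy of another RPS4 gene was not tested. Its FPKM was 88.9, 71.6 and 65.7 in the FT and 109, 123 and 104 in the WT libraries. All FT libraries were lower, and its log2 fold change was −0.42 (edgeR with Benjamini-Hochberg adjusted p = 0.0442) and −0.54 without FT_1. Its call was lost with a term for library number (−0.42, adjusted p = 0.077). RPS4Y1 was also not called with the length trend removed (−0.21, adjusted p = 0.217) or relative to the pool (0.01, adjusted p = 0.971).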
